A study of Mus musculus with 3 samples.

Results

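A set of 9 genes of the splicing machinery was followed in mouse embryonic stem cells during block of translation. They were the kinases Clk1, Clk2, Clk3 and Clk4, the splicing regulators Tra2a and Tra2b, and the nuclear speckle proteins Srrm1, Srrm2 and Son. The 9 genes were chosen by symbol among the 32285 genes listed in the count matrices, and each symbol matched 1 entry. The cells were E14, a stem cell line of 129/Ola background, cultured in serum and leukemia inhibitory factor. Exposure started 24 h after seeding. The groups were cells given 250 µg/mL cycloheximide in ethanol for 3 h, cells given the same dose for 6 h, and cells given ethanol without the drug for 6 h as the control. Cycloheximide is a small molecule that stops ribosomes during elongation. Each group had 1 library, no replicate and no test between conditions, and no ethanol control matched the shorter exposure.

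SR proteins are splicing factors with a domain rich in arginine and serine (an RS domain). Clk kinases phosphorylate this domain in the nucleus, which releases SR proteins from nuclear speckles, the bodies in which splicing factors are stored. Tra2a and Tra2b have RS domains themselves and bind GAA-rich exonic sequences to promote exon inclusion. Srrm1 and Srrm2 are coactivator proteins of the spliceosome, and Srrm2 and Son form the core of the speckle. Several of these genes are known to make an alternative transcript with an early stop codon, which is a target of nonsense-mediated decay (NMD), a pathway that needs translation.

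Exons linked to such transcripts are shown first for the Clk and Tra2 genes. These exons differ in kind between the members, and the extra exons of Srrm1, Srrm2 and Son are not printed. In GENCODE M21 on GRCm38, each of the 9 genes had at least 1 transcript annotated as an NMD target, against 32.1% of the 7494 protein-coding genes that averaged 10 CPM or more (UMIs, single captured molecules, per 1000000). For Clk1, Clk2 and Clk3 the annotated NMD transcripts leave out coding exon 4, which encodes part of the region before the kinase domain. The exon lies at chr1:58420121-58420211 (minus strand) in Clk1, chr3:89169618-89169702 (plus) in Clk2, chr9:57758627-57758723 (minus) in Clk3 and chr11:51273078-51273168 (plus) in Clk4. Its lengths of 91, 85, 97 and 91 bases are not multiples of 3. No annotated NMD transcript of Clk4 skips exon 4. The transcript Clk4-204 has an extra exon of 59 bases instead. The 4 exons read as follows, 5′ to 3′, with the 39 bases that are identical in all 4 kinases in capitals.
Clk1 exon 4: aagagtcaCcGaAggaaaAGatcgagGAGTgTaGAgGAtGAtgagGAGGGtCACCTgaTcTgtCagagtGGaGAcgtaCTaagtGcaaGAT
Clk2 exon 4: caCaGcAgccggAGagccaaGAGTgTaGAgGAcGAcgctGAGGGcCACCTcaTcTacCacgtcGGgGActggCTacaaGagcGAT
Clk3 exon 4: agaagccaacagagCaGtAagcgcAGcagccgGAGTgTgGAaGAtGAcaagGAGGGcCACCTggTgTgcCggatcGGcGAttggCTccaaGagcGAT
Clk4 exon 4: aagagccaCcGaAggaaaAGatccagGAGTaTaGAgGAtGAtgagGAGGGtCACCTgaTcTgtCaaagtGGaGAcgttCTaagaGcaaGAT

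For Tra2a and Tra2b the annotated NMD transcripts Tra2a-202 and Tra2b-206 carry an extra exon. It spans 306 bases at chr6:49252803-49253108 in Tra2a and 276 bases at chr16:22258986-22259261 in Tra2b, both on the minus strand. The annotated reading frame reaches a stop codon in either exon, shown in capitals, after which the exon is not printed.
Tra2a extra exon: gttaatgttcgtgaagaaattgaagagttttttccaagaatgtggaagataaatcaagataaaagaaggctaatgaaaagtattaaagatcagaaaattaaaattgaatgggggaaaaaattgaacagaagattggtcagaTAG
Tra2b extra exon: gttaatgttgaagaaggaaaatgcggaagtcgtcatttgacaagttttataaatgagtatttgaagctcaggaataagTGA

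Both extra exons were rich in AGAA, a GAA-type motif of the kind Tra2 proteins bind. The whole exon held 13 copies in Tra2a and 12 in Tra2b, counted on the transcript strand with overlaps allowed. The median was 2 copies in 5417 annotated internal exons of 250 to 330 bases, of which 0.185% held at least 13 and 0.222% at least 12. The extra exons were 60.9% identical to each other, and the coding sequences of Tra2a and Tra2b were 64.7% identical. Among the kinases, the coding sequences of Clk1 and Clk4 were the most alike pair at 73.8%, and those of Clk1 and Clk3 the least alike at 53.0%. Molecules were read at their 3′ ends, so the counts below add up all transcripts of a gene and do not tell these isoforms apart.

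The libraries held 127601369 unique molecular identifiers (UMIs, tags that mark single captured molecules) in the control, 115188502 after 3 h and 150987519 after 6 h. Barcodes with at least 15000 UMIs of which 1 to 20% were mitochondrially encoded were kept, which gave 2187 control barcodes, 1739 after 3 h and 2554 after 6 h. They held between 87.3% and 92.9% of the UMIs of their library. Pluripotency markers were present in each library, with 0 of 8 at zero and a summed level of 7067 to 7980 CPM. Most of that sum was Dppa5a (4771, 5327 and 5475 CPM in the control, after 3 h and after 6 h), and single markers shifted. In the same order Zfp42 was at 455, 592 and 240 CPM, Utf1 at 545, 501 and 329 CPM, and Sox2 at 213, 285 and 146 CPM. After 6 h Nanog and Dppa5a were above the control, and the other pluripotency markers were below it. Fibroblast markers summed to at most 0.368 CPM, with Col3a1, Lum and Postn at zero throughout. Neural markers, mainly Tubb3, were lower under the drug (74.8 CPM in the control, 50.4 after 3 h and 32.2 after 6 h), and trophoblast markers, mainly Tfap2c with Elf5 at zero, were higher (11.2, 20.5 and 23.3 CPM). Endoderm markers summed to 12.5, 9.84 and 8.14 CPM, a fall carried mainly by Sox7 (5.55, 1.32 and 0.299 CPM), while Gata4, Sox17 and Pdgfra were higher in both treated libraries. Mesoderm markers summed to 1.89, 3.22 and 5.49 CPM, and in both lists 0 of 6 were at zero in any library. The mitochondrial share of UMIs was 4.57% in the control, 3.52% after 3 h and 2.94% after 6 h. The part of the marker shifts in the ratios below was not tested. At most 3 barcodes were shared by any pair of libraries.

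The Clk kinases were higher in both treated libraries in CPM. Summed over the 4 genes, the level was 102 CPM in the control, 185 CPM after 3 h and 209.9 CPM after 6 h, a log2 ratio against the control of 0.85 after 3 h and 1.04 after 6 h. CPM here is the share of a library's kept UMIs, and the intervals below are 95% intervals of counting error only.

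Clk1, which phosphorylates SR proteins, stood at 50.2 CPM in the control, 98.8 CPM after 3 h and 117 CPM after 6 h. Its log2 ratio against the control was 0.98 after 3 h (0.93 to 1.02) and 1.22 after 6 h (1.17 to 1.26), the highest of the 9 genes after 6 h. Clk4, the paralog closest to Clk1 in coding sequence, was at 20.4, 41.2 and 44.5 CPM in the same order. Its log2 ratio was 1.02 after 3 h (0.94 to 1.09) and 1.13 after 6 h (1.06 to 1.197). The fold over the control was 1.97 and 2.33 for Clk1 and 2.02 and 2.18 for Clk4, so both treated libraries lay well above the control for either kinase. Between 3 h and 6 h Clk1 differed by 0.24 on the log2 scale in CPM, by 0.13 with TMM factors and by 0.08 per barcode. Clk4 differed by 0.11 in CPM but by −0.0019 with TMM factors, so no direction is given for Clk4 over that step.

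Clk3, a family member also expressed in sperm, was at 21.1 CPM in the control, 29.6 CPM after 3 h and 35.4 CPM after 6 h, with log2 ratios of 0.49 (0.41 to 0.57) and 0.75 (0.68 to 0.82). The exons of Clk3 share 1284 bases with Edc3, a decapping factor gene on the opposite strand, which was at 19.1, 27.0 and 29.5 CPM. How molecules from the shared stretch were counted is not given in the sources used here, so the value of Clk3 is uncertain in that respect. Clk2, which has also been studied in DNA damage and metabolic signalling, was at 10.6, 15.3 and 13.2 CPM. It was lower after 6 h than after 3 h under each of the 4 scalings tried, with CPM log2 ratios of 0.53 after 3 h (0.42 to 0.64), 0.32 after 6 h (0.21 to 0.43) and −0.21 between the times (−0.31 to −0.11). Against the control, the Clk2 ratio after 6 h was only 0.03 with TMM factors and 0.02 with DESeq2 size factors.

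The make-up of the kinase signal, which does not depend on library scaling, also differed between libraries. The share of Clk UMIs that came from Clk1 was 49.1% in the control (48.2 to 50.04), 53.4% after 3 h (52.7 to 54.1) and 55.7% after 6 h (55.1 to 56.2). The share from Clk2 was 10.4% (9.82 to 10.9), 8.28% (7.90 to 8.67) and 6.30% (6.03 to 6.59) in the same order. Clk3 contributed 20.6%, 16.02% and 16.9%, lowest after 3 h, and Clk4 19.9%, 22.3% (21.7 to 22.9) and 21.2% (20.7 to 21.7), highest after 3 h. The log2 ratio of Clk1 exceeded that of Clk2 by 0.45 after 3 h and by 0.90 after 6 h, whereas Clk1 and Clk4 differed by −0.04 and 0.09.

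**Figure D1:**
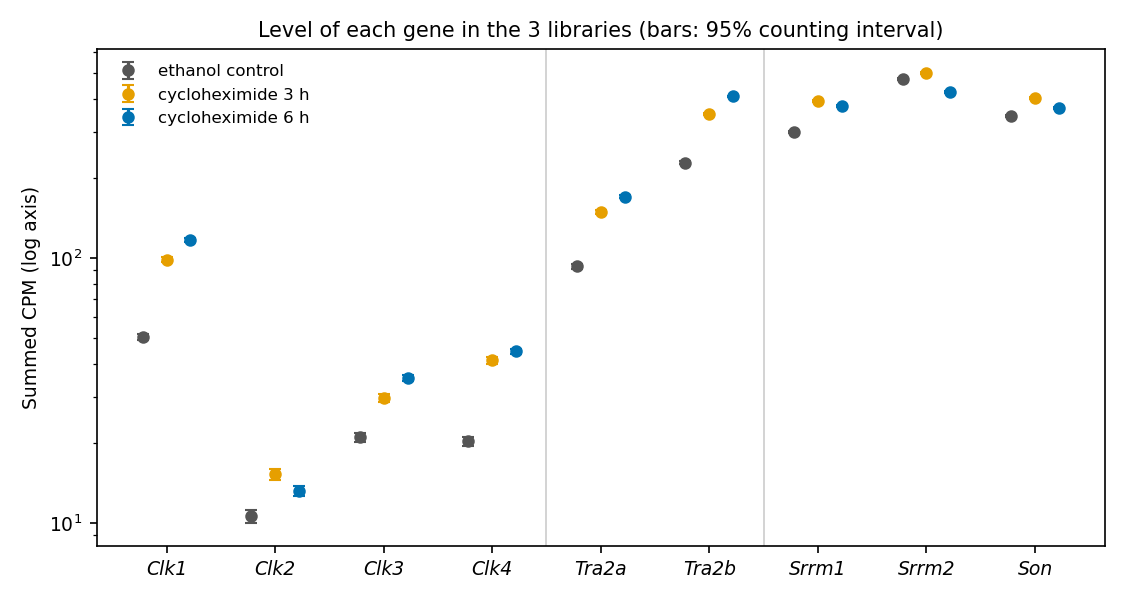
Level of each gene in the ethanol control, 3 h and 6 h libraries, as summed CPM on a log axis with 95% counting intervals (1 library per group). Clk1, Clk3, Clk4, Tra2a and Tra2b rank control, 3 h, 6 h from low to high, while Clk2, Srrm1, Srrm2 and Son are highest after 3 h.

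Tra2a and Tra2b were also higher in both treated libraries, by nearly the same factor. Tra2a was at 93.2 CPM in the control, 149 CPM after 3 h and 171 CPM after 6 h, with log2 ratios of 0.68 (0.64 to 0.71) and 0.87 (0.84 to 0.91). Tra2b was at 229, 350.2 and 407 CPM, with log2 ratios of 0.61 (0.59 to 0.64) and 0.83 (0.81 to 0.85). Their ratios differed by 0.06 after 3 h and 0.04 after 6 h. The share of Tra2 UMIs from Tra2a was 28.9%, 29.9% and 29.5% across the libraries. From 3 h to 6 h the log2 ratio was 0.20 for Tra2a and 0.22 for Tra2b in CPM, but 0.03 and 0.06 per barcode.

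The 3 large speckle and coactivator genes differed far less from the control. Together they summed to 1119 CPM in the control, 1295 CPM after 3 h and 1167 CPM after 6 h, a log2 ratio of 0.21 after 3 h and 0.06 after 6 h. Srrm1, which binds the exon junction complex and promotes splicing and 3′ end formation, was at 299 CPM in the control, 392 CPM after 3 h and 374 CPM after 6 h (log2 ratios 0.39, 0.37 to 0.41, and 0.32, 0.30 to 0.34). Its log2 ratio after 6 h was only 0.04 with TMM factors and 0.02 with DESeq2 size factors.

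Son, which is needed for speckle structure, was at 344 CPM in the control, 403 CPM after 3 h and 369 CPM after 6 h. In CPM its log2 ratio was 0.23 after 3 h (0.21 to 0.25) and 0.10 after 6 h (0.08 to 0.12), and the latter was −0.19 with TMM factors and −0.20 with DESeq2 size factors. Son exons share 103 bases with Donson on the opposite strand, a replication gene at 10.3, 14.8 and 21.5 CPM. Srrm2, the speckle scaffold, was at 475 CPM in the control, 500.4 CPM after 3 h and 425 CPM after 6 h. The log2 ratio was 0.07 after 3 h (0.06 to 0.09), which was −0.10 with TMM factors and −0.11 with DESeq2 size factors, and −0.16 after 6 h (−0.18 to −0.14), which was negative under each scaling tried. All 3 genes were lower after 6 h than after 3 h, with log2 ratios of −0.07 for Srrm1, −0.24 for Srrm2 and −0.13 for Son.

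Set against one another, the members spread widely. The log2 ratio of Clk1 exceeded that of Srrm2 by 0.90 after 3 h and 1.38 after 6 h, and that of Tra2b exceeded that of Srrm2 by 0.54 and 0.99. These differences do not change with library scaling. Of the UMIs of all 9 genes, Srrm2 made up 30.8% in the control, 25.3% after 3 h and 21.7% after 6 h, and Tra2b 14.8%, 17.7% and 20.8%. Clk1 made up 3.26%, 4.99% and 5.97%. Counting intervals of these 3 shares did not overlap between libraries, and neither did those of Clk3, Clk4, Tra2a and Son. Those of Clk2 and Srrm1 overlapped between the control and 6 h. Such intervals are narrow at these counts and do not cover variation between cultures. How many of all genes would separate in this way was not counted, so the separation is not read as a result about the members.

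Read against all genes, Clk1, Clk3, Clk4, Tra2a and Tra2b lay towards the upper end of a distribution that was itself shifted. Clk2, Srrm1, Son and Srrm2 lay lower in it after 6 h. All 9 genes passed the floor of a mean of 10 CPM over the 3 libraries, as did 7608 genes in all. After 3 h, 4 of the 9 (Clk1, Clk4, Tra2a and Tra2b) were at least 1.5-fold higher than the control, beside 13.9% of all 7608 genes, and 0 were 1.5-fold lower, beside 2.13%. After 6 h, 5 of the 9 (the same 4 and Clk3) were at least 1.5-fold higher, beside 22.1% of all genes, and 0 were lower, beside 7.79%. At least 2-fold higher were Clk4 after 3 h, where 4.32% of all genes were, and Clk1 and Clk4 after 6 h, where 8.65% were. Between 3 h and 6 h, 0 members differed 1.5-fold in either direction, and 1.74% of all genes were higher and 2.52% lower. The comparisons after 3 h and 6 h share the control library.

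The median log2 ratio of the 9 genes was 0.53 after 3 h, 0.75 after 6 h and 0.11 between the times, and the median of all genes was 0.11, 0.17 and 0.04. Above the all-gene median lay 8 members after 3 h (all but Srrm2) and 7 after 6 h (all but Srrm2 and Son). Clk1 lay at percentile 95.4 of all genes after 3 h and 94.5 after 6 h, and Clk4 at 95.8 and 93.5. Tra2a lay at percentiles 89.3 and 88.5 and Tra2b at 87.2 and 87.3. Clk3 lay at percentiles 81.8 and 84.6, Son at 62.3 and 44.3, and Srrm2 at 45.3 and 24.3. Clk2 lay at percentile 83.8 after 3 h and 61.9 after 6 h, and Srrm1 at 75.5 and 62.2.

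**Figure D2:**
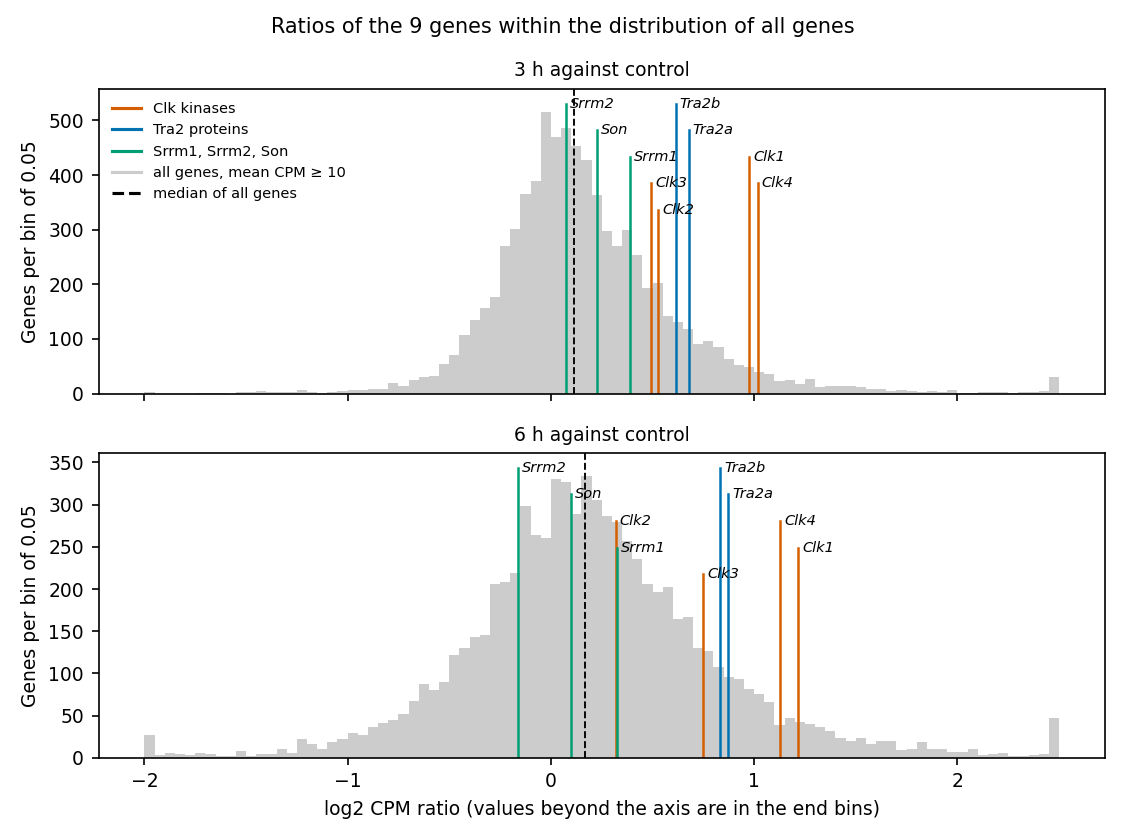
Distribution of log2 CPM ratios of the 7608 genes (grey) after 3 h and 6 h, with each of the 9 genes as a coloured line and the median of all genes as a dashed line. Clk1 and Clk4 lie in the upper tail at both times, and Srrm2 lies below the dashed line at both.

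CPM fixes the total of each library, and factors that fix the typical gene instead lowered each ratio, while scaling by the number of barcodes raised each ratio against the control. With TMM factors the median of all genes was −0.06 after 3 h and −0.12 after 6 h, a share of 42.6% and 40.5% of genes above zero in place of 64.1% and 64.1%. After 3 h, 8.60% of genes were then 1.5-fold higher and 5.23% lower, in place of 13.9% and 2.13%. After 6 h the shares were 11.6% and 16.9%, in place of 22.1% and 7.79%. Under these factors the members at least 1.5-fold higher were Clk1 and Clk4 after 3 h, and Clk1, Clk4 and Tra2a after 6 h. Clk1 and Clk4 passed 1.5-fold at both times under each of the 4 scalings. The members' median exceeded the all-gene median by 0.42 after 3 h and 0.58 after 6 h. This difference is the same under all 4 by construction, since a scaling adds one constant to all genes.

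**Figure D3:**
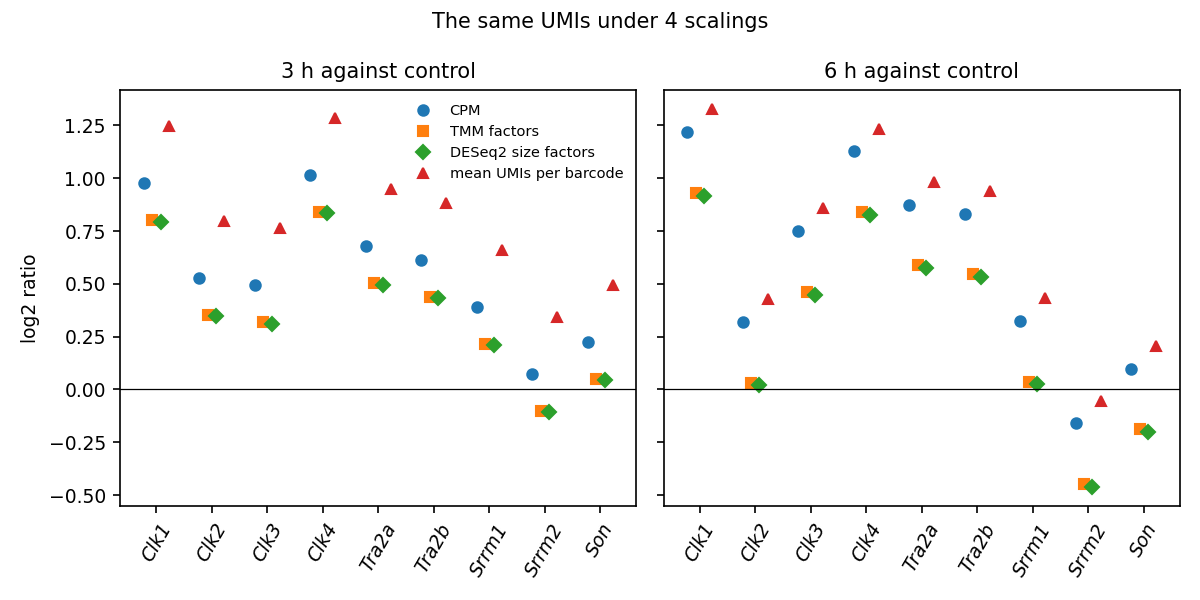
Log2 ratio of each gene after 3 h and 6 h when the same UMIs are scaled by the library total (CPM), TMM factors, DESeq2 size factors or the number of barcodes. The order of the genes is the same in each scaling by construction, and Srrm2 after 3 h and Son after 6 h change sign.

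Other genes of the pathway were taken from 3 lists. Of the 10 SR protein genes that passed the floor (of 11 listed), 1 was at least 1.5-fold higher at each time, Srsf11, and 0 were lower, with a median log2 ratio of 0.29 after 3 h and 0.40 after 6 h. Over all genes 13.9% and 22.1% were higher and 2.13% and 7.79% lower at these times, and 8.60% and 11.6% were higher and 5.23% and 16.9% lower with TMM factors. Counts in the 3 lists are to be read against these shares. Srsf11, an SR-related factor, had the highest ratio after 6 h, with 202 CPM in the control, 320.4 CPM after 3 h and 350.1 CPM after 6 h. Srsf5, an SR protein, had the lowest, with 290.1, 304 and 211 CPM. With TMM factors the medians were 0.115 and 0.11, 0 SR genes were higher at either time, and Srsf5 was 1.5-fold lower after 6 h.

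Among kinases, cyclins and phosphatases that act on SR proteins or speckles, 18 of 23 passed the floor, with a median log2 ratio of 0.03 at either time. After 3 h 4 were higher (Ccnl1, Ccnl2, Ppp1r10 and Dyrk1a) and 1 was lower (Dyrk3). After 6 h 2 were higher (Ccnl1 and Dyrk1a), a smaller share than the 22.1% of all genes, and 0 lower. Ccnl1, cyclin L1, a speckle cyclin that partners CDK11, was at 69.7 CPM in the control, 293 CPM after 3 h and 332 CPM after 6 h, a log2 ratio of 2.25 after 6 h (2.22 to 2.29) and above that of any Clk gene. Dyrk3, a kinase that dissolves speckles and other condensates, was the lowest after 6 h, with 43.7, 26.5 and 29.5 CPM. The SR protein kinases Srpk1 and Srpk2, which act mainly in the cytoplasm, had log2 ratios of 0.06 and −0.35 after 6 h. With TMM factors 3 genes were higher and 1 lower after 3 h, and 1 was higher (Ccnl1) and 5 were lower after 6 h (Srpk2, Dyrk3, Hipk1, Cdk13 and Ppp1r8).

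Of the other RS-domain or speckle genes and Tra2 partners, 34 of 38 passed the floor, with a median log2 ratio of 0.18 after 3 h and 0.14 after 6 h. After 3 h 6 were higher and 1 lower (Rbm10), and after 6 h 7 were higher (Rsrc2, Clasrp, Luc7l, Sugp2, Rbm5, Sugp1 and Rbm39) and 3 lower (Arglu1, Rbm6 and Rbm10). These counts are near the shares over all genes, of which 13.9% and 22.1% were higher. Rsrc2, an RS-domain protein, was the highest after 6 h with 159, 345 and 437 CPM. Clasrp, named for its binding to CLK4, was at 12.1, 26.2 and 32.9 CPM, a log2 ratio of 1.44 after 6 h. Rbm10, a splicing regulator, was the lowest with 54.8, 35.9 and 28.8 CPM. The medians of the last 2 lists thus lay near or below the all-gene medians of 0.11 and 0.17, while that of the SR genes lay above them and below that of the 9 members. With TMM factors 4 genes of this last list were higher and 2 lower after 3 h, and 3 were higher (Rsrc2, Clasrp and Luc7l) and 5 lower after 6 h.

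**Figure D4:**
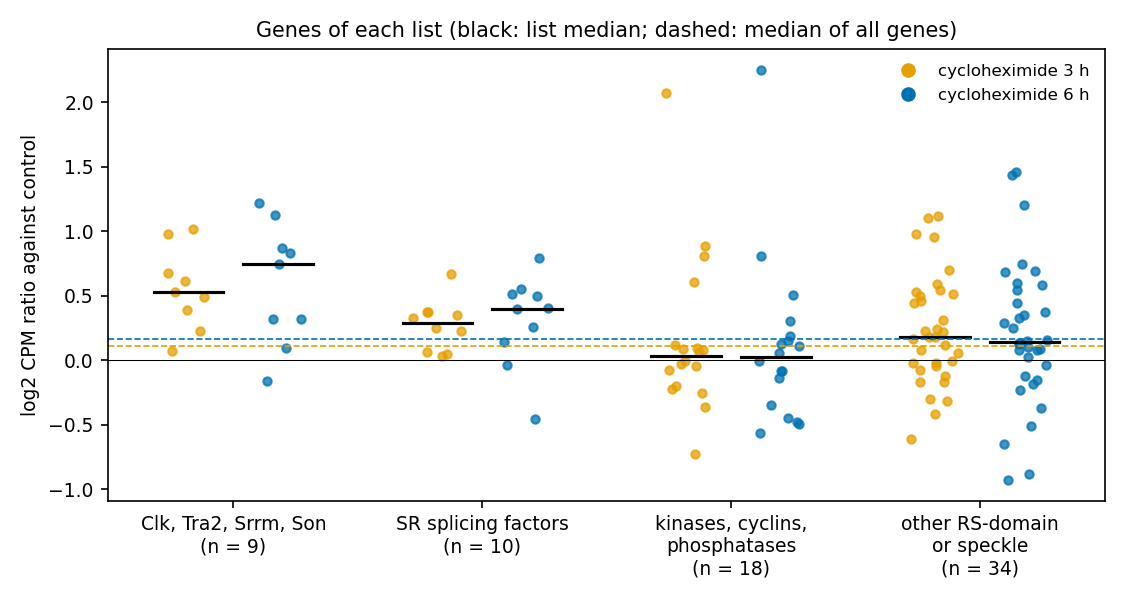
Log2 CPM ratio against the control of each gene that averaged 10 CPM or more in the 9-gene set and 3 pathway lists after 3 h and 6 h, with list medians in black and all-gene medians dashed. The highest point is Ccnl1 (2.25 after 6 h) and the lowest is Rbm10 (−0.93 after 6 h).

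Genes with the most similar pair of ratios were found by the distance between (3 h, 6 h) log2 ratios among 5561 genes that averaged 20 CPM or more. This measure rests on 2 ratios that share the control. Nearest to Clk1 were Luc7l (0.97 and 1.21), Zfp655 and Zfp329, and 25 genes lay within 0.1. Nearest to Clk4 were Tsr1, Ddit3 and Nsrp1, with 13 genes within 0.1. Nearest to Tra2a were Nr2c2ap, Smyd4 and Dph5 (65 within 0.1), to Tra2b Heatr6, Snw1 and Casc3 (86), and to Clk3 Zfand3, Zfp369 and Qk (152). Clk2 lay closest to Rbbp5, Riox1 and Zfp131 (40), Srrm1 to Baz1b, Gtf2e1 and Spata7 (114), Srrm2 to Dis3, Rcl1 and Krit1 (127), and Son to Bdp1, Rnf216 and Arl13b (173).

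Members with an annotated NMD transcript had a wide range of ratios. After 6 h the median log2 ratio was 0.22 in the 2407 coding genes with such a transcript and 0.15 in the 5087 without, and 24.0% and 20.5% were at least 1.5-fold higher. After 3 h these shares were nearly equal, 13.6% with and 13.4% without. All 9 members have one, and their ratios after 6 h ranged from −0.16 (Srrm2) to 1.22 (Clk1).

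Promoters are shown for Clk4, Tra2a and Tra2b, which were at least 1.5-fold higher at both times in CPM. With TMM factors Tra2b passed this fold at neither time and Tra2a only after 6 h. With DESeq2 size factors neither Tra2 gene passed it at either time. Printed are the 250 bases before the start from RefSeq on GRCm38.p6. The table of promoters held 8 of the 9 genes, all but Clk1, and the first entry of each gene is printed. The Clk4 window lies inside the gene as annotated in GENCODE M21, which starts at chr11:51261730. Capitals mark TGACG, the core of the cyclic AMP response element (CRE), on either strand, and the full palindrome TGACGTCA contains this core on both strands. The motifs were chosen after the sequences had been seen.
Clk4 promoter, chr11:51262864-51263113, plus strand: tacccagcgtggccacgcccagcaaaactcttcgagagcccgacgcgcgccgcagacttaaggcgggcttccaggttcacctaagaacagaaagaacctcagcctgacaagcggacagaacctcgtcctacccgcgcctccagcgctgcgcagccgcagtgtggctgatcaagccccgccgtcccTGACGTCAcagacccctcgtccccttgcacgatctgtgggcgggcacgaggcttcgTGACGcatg
Tra2a promoter, chr6:49264053-49264302, minus strand: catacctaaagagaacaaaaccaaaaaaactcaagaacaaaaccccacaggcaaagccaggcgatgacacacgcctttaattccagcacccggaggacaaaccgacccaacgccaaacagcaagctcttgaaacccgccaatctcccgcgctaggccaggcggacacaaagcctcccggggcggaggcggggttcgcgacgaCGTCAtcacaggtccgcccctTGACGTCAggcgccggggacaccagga
Tra2b promoter, chr16:22266006-22266255, minus strand: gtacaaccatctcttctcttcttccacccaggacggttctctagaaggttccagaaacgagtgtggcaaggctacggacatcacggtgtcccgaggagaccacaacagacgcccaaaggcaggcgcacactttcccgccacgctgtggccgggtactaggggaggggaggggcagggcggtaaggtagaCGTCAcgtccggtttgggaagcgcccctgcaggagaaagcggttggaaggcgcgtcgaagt

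TGACGTCA was present in the windows of Clk4 and Tra2a, 2 of the 8 members, and in 1.55% of 32851 promoters of the table. TGACG was present in 7 of the 8 (Clk2, Clk3, Clk4, Tra2a, Tra2b, Srrm2 and Son), and in 17.8% of all. Since Srrm2 and Son were among the 7, this core did not separate the members by their ratio. TATAA, the TATA box core, was in 0 of the 8 and in 22.8% of all promoters, on either strand. A member was counted if any of its promoters in the table held the motif. The shares are over single promoters of all genes, expressed or not, so counts and shares are unlike measures. A match is a description of the letters and not a measured binding site.

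The higher sums were spread over many barcodes. After each barcode was thinned to 15000 UMIs, Clk1 had at least 1 UMI in 50.9% of control barcodes (48.8 to 53.0), 75.9% after 3 h and 80.9% after 6 h, with a highest count per barcode of 5, 9 and 10. Clk4 was seen in 28.2%, 46.1% and 47.2% of barcodes, and Clk3 in 25.5%, 35.8% and 40.4%. Clk2 was seen in 14.6%, 19.8% and 17.1%. Tra2a was seen in 73.3%, 88.5% and 91.4%, Tra2b in 95.6% or more, and Srrm1, Srrm2 and Son in 98.2% or more of the barcodes of each library. Without thinning, the Clk1 shares were 85.3%, 97.8% and 97.7% at median depths of 43160, 51726 and 46200 UMIs. A Poisson draw with the same mean would give 52.8%, 78.0% and 82.9% of barcodes with a Clk1 UMI, and 29.1%, 46.3% and 49.2% with a Clk4 UMI.

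The excess squared coefficient of variation, which is the variance beyond counting noise over the squared mean, was 0.16, 0.10 and 0.11 for Clk1 and 0.04, 0.06 and 0.05 for Tra2b. Its median over all genes with at least 0.2 UMIs per thinned barcode was 0.08 in each library. The other kinases varied more between libraries, with 0.22, 0.06 and 0.15 for Clk4 and 0.139, −0.005 and −0.014 for Clk3. Clk2 had 0.41 after 3 h, at a mean of 0.23 UMIs, and was below 0.2 UMIs in the other libraries. Pearson correlations of thinned log counts across barcodes were weak for the 36 pairs of members, with medians of 0.04, 0.03 and 0.04 and a highest value of 0.17. The median correlation of a member with all genes was 0.0003 to 0.018. After 6 h the median correlation with the other members was 0.064 for Clk1, 0.077 for Tra2b and 0.070 for Son. These values were just above the 95th percentile over all genes (0.052, 0.076 and 0.067), and the other 6 members were below theirs. In the control and after 3 h no member passed its percentile. Son, for example, had 0.064 against 0.071 in the control and 0.060 against 0.063 after 3 h. A median over members and a percentile of correlations with single genes are unlike measures. Without thinning the medians over the 36 pairs were 0.30, 0.48 and 0.47, and depth is shared by all genes of a barcode.

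**Figure D5:**
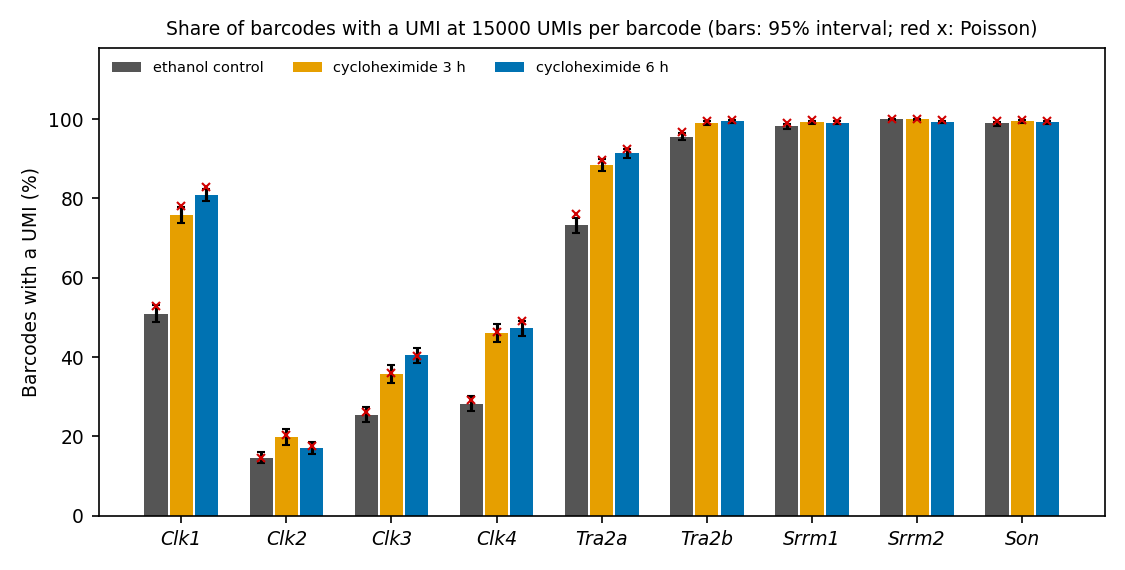
Percent of barcodes with at least 1 UMI of each gene after thinning to 15000 UMIs per barcode, by library, with 95% binomial intervals and the share a Poisson draw of equal mean would give (red x). Clk1 has 50.9% in the control and 80.9% after 6 h, and Tra2b, Srrm1, Srrm2 and Son are above 95% in each library.

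Free RNA in droplets was measured in barcodes with 10 to 100 UMIs, since no cell type known to lack the genes was at hand in these cultures. The level of Clk1 in free RNA was 1.22 times its level in kept barcodes in the control (1.06 to 1.39), 1.25 times after 3 h and 1.19 times after 6 h. For Clk2 it was 1.78, 1.48 and 1.48 times, for Clk4 1.36, 1.197 and 1.01 times, and for Clk3 1.00, 1.09 and 0.83 times. Tra2a and Tra2b lay between 0.99 and 1.13 times. Srrm1, Srrm2 and Son lay between 0.62 and 0.85 times. Subtraction of 10% free RNA left each of the 27 ratios of the members within its counting interval.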

How the data were processed

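The 3 libraries were prepared with 10x Genomics 3′ v3 chemistry from frozen and thawed cells per the labels' protocols. The authors deposited unnormalized UMI counts for each gene and barcode, made with Cell Ranger 4.0.0 and mm10, per the submitters' processing notes. Each matrix listed 6794880 barcodes, so cells were not called in it. Whether intronic reads were counted is not given in the sources used here. Of 32285 gene identifiers, 32235 matched GENCODE M21.

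UMIs were summed over barcodes with at least 15000 UMIs and 1 to 20% mitochondrial UMIs, which left out 62 control barcodes, 1 at 3 h and 8 at 6 h, all below 1%. No doublets were removed. Log2 ratios of CPM used a prior of 0.5 counts. Intervals (95%) are exact Poisson for levels, conditional binomial for ratios and Clopper-Pearson for shares, and cover counting error only. A fold of 1.5, or 2 as an alternative, was read against genes averaging 10 CPM or more. No test was made, as each group had 1 library. The ratio and interval code was checked on simulated data.

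All 9 members are named. From each list the highest and lowest gene at 6 h and up to 7 genes past 1.5-fold are named, and for each member the 3 nearest genes. Srpk1, Srpk2, Clasrp and the promoter motifs were singled out after values were seen. The members and lists were chosen with earlier results of these data known. Alternatives were TMM factors (edgeR 4.0.16), DESeq2 1.42.0 size factors, UMIs per barcode, totals without mitochondrial genes, floors of 5000 and 25000 UMIs, other mitochondrial limits, removal of barcodes above 2 times the median, a prior of 5, and subtraction of 10% free RNA. Other scalings of the 3 pathway lists were added after seeing the data. Software was R 4.3.3, Python 3.11.15, numpy 2.4.6, scipy 1.17.1, pandas 2.3.3, Biopython 1.88 and matplotlib 3.10.9.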

Additional observations from a re-analysis of the deposited data

Results flagged for a closer look

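Srrm2 was above the control after 3 h and below it after 6 h in CPM, and its log2 ratio between 6 h and 3 h was −0.24. The difference was not tested, and the sign after 3 h depends on the scaling.

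The 62 control barcodes with under 1% mitochondrial UMIs, which were left out above, held 6357765 UMIs and a different make-up of the 9 genes. Relative to the kept control barcodes, the log2 ratio was −0.86 for Clk1, −0.97 for Clk2, 0.35 for Clk3 and −0.41 for Clk4. It was −1.68 for Tra2a and −1.49 for Tra2b. For the speckle genes it was −1.95 for Srrm1, −1.80 for Srrm2 and −1.68 for Son. Of the 9 genes, Clk3 alone was higher there than in kept barcodes (26.7 against 21.1 CPM, from 170 UMIs). With these barcodes included, 10 of the 27 ratios of the members moved beyond their counting interval, all upwards, such as that of Tra2b after 6 h from 0.83 to 0.88.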

How the results depend on the processing

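With 1 library per group, depth bounds counting error only, and variation between cultures, treatments and preparations was not measured. Each median and each count of members kept its direction and size range under the 2 UMI floors, the 2 mitochondrial limits, removal of barcodes above 2 times the median, the larger prior, free RNA subtraction and totals without mitochondrial genes. Only the scalings and the fold moved them. The median log2 ratio of the 9 members after 3 h was 0.35 with TMM factors, 0.35 with DESeq2 size factors and 0.80 per barcode. After 6 h it was 0.46, 0.45 and 0.86 in that order. Between 6 h and 3 h it changed sign to −0.0019, −0.0086 and −0.051, as did Clk4, which is the median gene there. Srrm2 after 3 h became −0.10 and −0.11, and Son after 6 h −0.19 and −0.20, with TMM and DESeq2 factors. Members at least 1.5-fold higher after 3 h numbered 2 with TMM, 2 with DESeq2 and 7 per barcode, where 8.60%, 8.46% and 30.1% of all genes were higher, and 1 at 2-fold. After 6 h they numbered 3 with TMM and 2 with DESeq2, where 11.6% and 11.3% of all genes were higher, and 2 at 2-fold. The moves under other factors follow from the scaling, which adds one constant to all genes, and those at 2-fold from the higher threshold. No paired analysis was possible because each group had 1 library.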
